A study of Mus musculus with 6 samples.

Results

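Expression was followed for 10 genes for protein folding and stress signalling in the endoplasmic reticulum of fully grown mouse oocytes. The genes were chosen by name, with earlier results of these data known. Rows with their symbols were found for 9 of the 10 genes, out of 10896 genes in the authors' table. They are the chaperones Hspa5, Hsp90b1 and Calr, the disulfide isomerases Pdia4 and Pdia6, the degradation gene Sel1l, and the stress genes Ppp1r15a, Atf4 and Ddit3. No row carried the symbol Xbp1, a stress transcription factor, which was not analysed here.

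The study compared germinal vesicle oocytes, which have not yet resumed meiosis, in 2 groups of 3 samples with 50 oocytes each, all from (C57BL x CBA) F1 females. In vitro grown oocytes came from follicles freed with collagenase from ovaries of females 10 to 12 days old, with 2 to 5 females per collection. The follicles were kept on membrane inserts in MEM-alpha with penicillin G, streptomycin, insulin, transferrin, selenium, 5% fetal bovine serum and 0.01 µg/ml follicle stimulating hormone. In vivo grown oocytes were released by needle from ovaries of females 7 to 11 weeks old into M2 medium with dbcAMP. All in vitro samples came from the younger females, so that culture and donor age cannot be told apart in any difference below. Each sample is a pool of oocytes. In a pool, fewer cells of a type and less RNA per cell cannot be told apart, and whether samples within a group stem from different cultures or different animals is not stated in the labels.

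The endoplasmic reticulum folds the proteins that a cell secretes or places in membranes, which in an oocyte include the egg coat. When unfolded proteins collect there, the sensors Ern1, Eif2ak3 and Atf6 start the unfolded protein response. This response slows translation through phosphorylation of eIF2alpha, and it raises chaperones, disulfide isomerases and a degradation route through the transcription factors Atf6, Xbp1 and Atf4. Many of its target genes carry the endoplasmic reticulum stress element (ERSE), in which CCAAT and CCACG stand 9 bases apart and to which Atf6 binds together with NF-Y.

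The promoter of each of the 10 genes was found in RefSeq (build GRCm38.p6), from 250 bases before the start to 50 bases after it, and was searched on both strands. ERSE matches lay in 4 of the 10, against 39 of all 32851 promoters of this length (0.119%). The 10 genes were picked by name from a response whose targets often carry the ERSE, so these shares do not test enrichment. The 4 promoters are shown because they hold a shared response element while 2 of their genes were called and 2 were not. Capitals mark the ERSE matches.

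Hspa5 (chr2:34771840-34772139, plus strand): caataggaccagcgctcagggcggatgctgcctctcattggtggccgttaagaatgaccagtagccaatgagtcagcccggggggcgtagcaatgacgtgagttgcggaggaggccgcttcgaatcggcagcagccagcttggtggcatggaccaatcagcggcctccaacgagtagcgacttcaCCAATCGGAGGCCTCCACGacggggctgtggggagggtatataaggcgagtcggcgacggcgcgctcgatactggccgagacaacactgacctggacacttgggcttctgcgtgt
Pdia6 (chr12:17266339-17266638, plus strand): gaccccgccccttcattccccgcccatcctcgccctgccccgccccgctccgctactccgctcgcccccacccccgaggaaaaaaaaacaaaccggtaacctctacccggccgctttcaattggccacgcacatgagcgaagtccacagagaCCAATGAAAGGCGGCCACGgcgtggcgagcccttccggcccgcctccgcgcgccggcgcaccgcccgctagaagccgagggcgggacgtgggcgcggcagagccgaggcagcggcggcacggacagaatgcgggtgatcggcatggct
Hsp90b1 (chr10:86705395-86705694, minus strand): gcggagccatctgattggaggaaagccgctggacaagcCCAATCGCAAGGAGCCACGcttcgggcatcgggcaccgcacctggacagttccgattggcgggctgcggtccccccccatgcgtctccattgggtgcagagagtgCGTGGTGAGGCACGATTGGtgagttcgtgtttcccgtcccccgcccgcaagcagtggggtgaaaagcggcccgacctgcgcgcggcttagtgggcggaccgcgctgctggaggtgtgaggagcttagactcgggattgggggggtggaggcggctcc
Calr (chr8:84846882-84847181, minus strand): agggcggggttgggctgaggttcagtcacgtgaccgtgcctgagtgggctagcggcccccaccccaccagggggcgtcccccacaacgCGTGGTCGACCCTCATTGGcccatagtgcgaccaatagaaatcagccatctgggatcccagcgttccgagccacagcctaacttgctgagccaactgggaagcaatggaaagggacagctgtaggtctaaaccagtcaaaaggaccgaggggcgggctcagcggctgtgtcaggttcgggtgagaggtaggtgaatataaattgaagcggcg

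The Hspa5 match begins 65 bases before the start and the Pdia6 match 98 bases before it. Hsp90b1 holds 2 matches, which begin 212 and 107 bases before the start, the second on the opposite strand. In Calr the match lies on the opposite strand and begins 162 bases before the start. In the Ppp1r15a promoter a CRE match, TGACGTCA, begins 12 bases before the start, a motif found in 1.79% of all promoters. ERSE-II (ATTGG and CCACG with 1 base between them, in 0.0365% of all promoters), the UPRE (TGACGTGG, 0.676%) and an ATF4 site (ATTGCATCA, 0.192%) had no match in the 10 windows. Pdia4, Sel1l, Atf4, Ddit3 and Xbp1 had no match to any of these motifs in their windows. A match is a run of letters and not a measured binding site. Hspa5 and Pdia6, with a match, were called lower in vitro, while Hsp90b1 and Calr, with a match, were not called.

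Levels are given as the authors' group means of normalised reads, which carry no SD here. Such reads are scaled for each library, so the levels are relative and are not amounts of RNA per oocyte. A gene was called where its PPEE, a value in the table the authors deposited, was below 0.05. PPEE is read here, from the usual meaning of the term, as the posterior probability that expression is equal in both groups. It is not a p-value. By this rule 5 of the 9 genes were called lower in vitro and 0 higher, where 8.31% of all 10896 genes were called lower and 6.75% higher. Of the 1229 genes whose mean over both groups reached 1000, as those of the chaperones did, 13.8% were called lower and 10.3% higher. The mean was lower in vitro for 8 of the 9 genes, Ddit3 being the exception, and for 48.9% of all genes. The median log2 change of the 9 genes, in vitro over in vivo, was -0.36, and the range was -0.79 to 0.21. The median was 0.02 for all genes and -0.07 for the genes whose mean over both groups reached 1000.

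**Figure D1:**
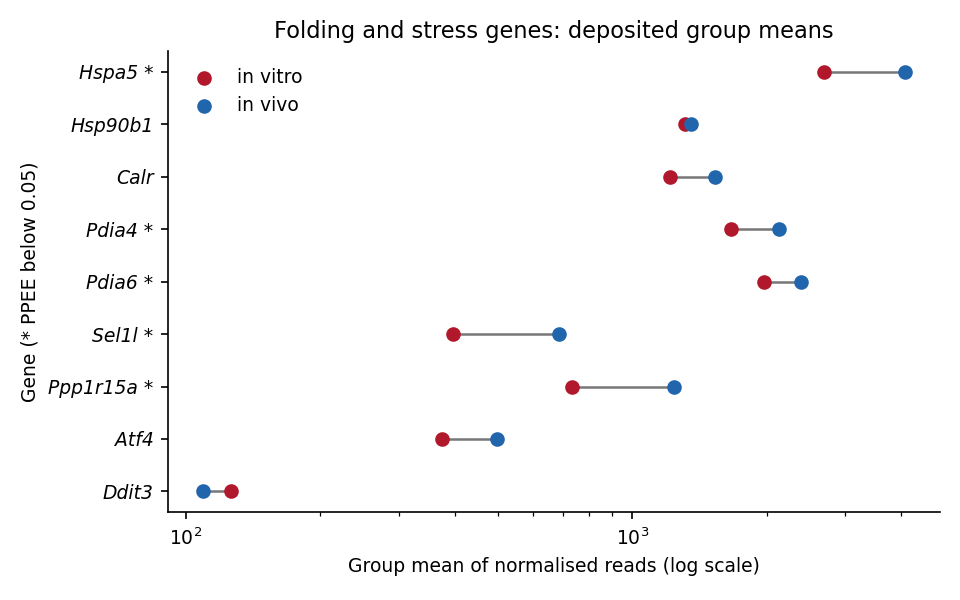
Group means of normalised reads (log axis) of the 9 genes, in vitro in red and in vivo in blue, from the authors' table, with an asterisk where the PPEE is below 0.05. The in vitro mean lies left of the in vivo mean for 8 genes, with the widest gaps at Sel1l and Ppp1r15a, and right of it for Ddit3.

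Among the luminal chaperones, Hspa5 was lower in vitro and Hsp90b1 lay nearly level. Hspa5 (gene identifier 14828), also known as BiP, is the main Hsp70 of the endoplasmic reticulum and keeps the stress sensors inactive. Its mean was 2690 normalised reads in vitro and 4078 in vivo, which is 1.52-fold lower in vitro, with PPEE 2.02e-12 by the authors' deposited table. Hsp90b1 (gene identifier 22027), also known as Grp94, the Hsp90 of the same compartment, stood at 1314 in vitro and 1352 in vivo, with PPEE 0.982 by the authors' deposited table. Calr (gene identifier 12317), the calcium binding lectin calreticulin, which retains unfinished glycoproteins, stood at 1215 in vitro and 1536 in vivo. That is a log2 change of -0.34 with PPEE 0.174 by the authors' deposited table, so that Calr was not called.

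Both disulfide isomerases, which form and rearrange disulfide bonds in folding proteins, were called lower in vitro by small folds. Pdia4 (gene identifier 12304) had means of 1662 in vitro and 2127 in vivo, which is 1.28-fold lower, with PPEE 0.00699 by the authors' deposited table. For Pdia6 (gene identifier 71853) the means were 1968 and 2388, which is 1.21-fold lower, with PPEE 9.55e-14 by the authors' deposited table. The fold of Calr, 1.26, lies between these. The order of the PPEE therefore did not follow the order of the folds in these genes.

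Per kilobase of gene length, Hspa5 was the most abundant of the 9 genes in both groups, at 1059 normalised reads per kilobase in vitro and 1605 in vivo. Pdia6 came second, at 926 and 1124 reads per kilobase. Pdia4 (637 and 815), Calr (625 and 791) and Hsp90b1 (476 and 490 reads per kilobase) followed in vitro. In vivo, Ppp1r15a at 530 reads per kilobase stood above Hsp90b1, while in vitro Ppp1r15a stood at 312, below it. Atf4 (214 and 284), Ddit3 (144 and 124) and Sel1l (63.2 and 109 reads per kilobase) were the least abundant. This order depends on the division by length: by plain means Sel1l (397 in vitro and 686 in vivo) stood above Ddit3 (126 and 109). The level per kilobase of Hspa5 lay at percentile 96.5 of all genes in vitro and 98.0 in vivo, and that of Sel1l at percentile 55.6 and 68.3. No error belongs to these levels, so this order is that of the means only, and no difference between neighbours was tested.

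**Figure D2:**
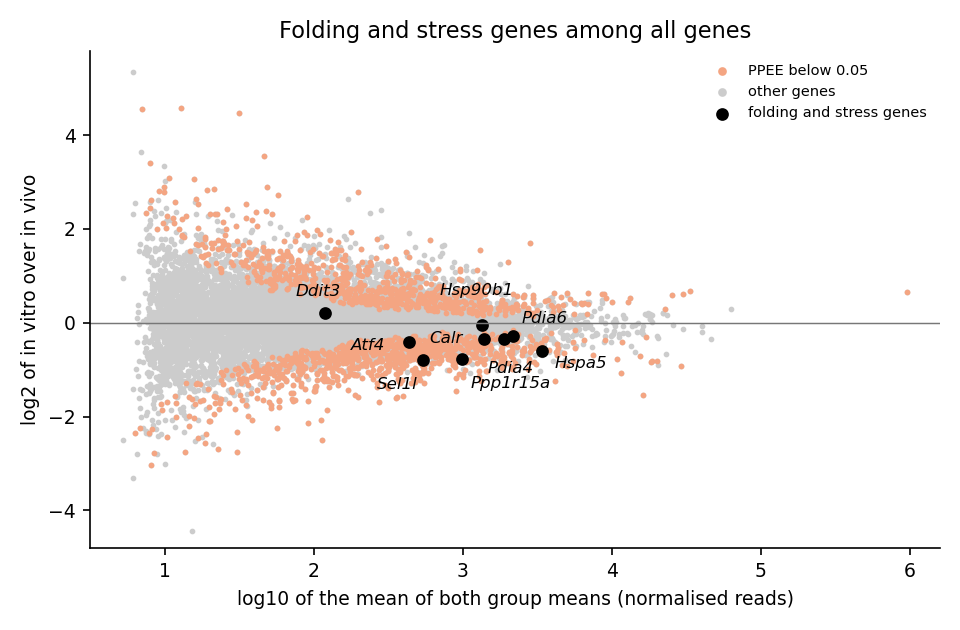
Log2 of in vitro over in vivo (vertical axis) against log10 of the mean of both group means in normalised reads (horizontal axis) for the genes of the table, without Scd1, which was listed at 0 in vivo. Orange points have a PPEE below 0.05, and the 9 folding and stress genes (black) lie between -0.79 and 0.21.

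Reads of each library could be worked out from the group means for genes whose means lie below 1000 in both groups, as the section on processing describes. This gave the reads of all 6 libraries for 3 of the 9 genes, Sel1l, Atf4 and Ddit3, and of the in vitro libraries for Ppp1r15a. Libraries are called A, B and C within a group, since nothing ties them to the sample numbers. By PPEE, 7.14% of the genes with such reads were called lower and 6.38% higher. Values from means between 200 and 1000, which include those of Sel1l, Atf4 and Ppp1r15a, are less certain: a randomly shifted value in that range also had a solution in 29.5% of cases in vitro and 41.5% in vivo. Across the 8869 genes with recovered reads in both groups, the libraries held between 1290464 and 1922920 reads. Limma voom called 464 of these genes higher (5.23%) and 420 lower (4.74%) in vitro, at a Benjamini-Hochberg adjusted p below 0.05, 2-sided. Its p-values measure the spread between these samples, which may be technical. Its counts depended on single libraries: 1412 genes were called higher and 967 lower without in vitro library A. Without in vivo library A limma voom called 0, although 2106 genes had an unadjusted p below 0.05. It called 99 higher and 89 lower without in vitro library B, and 16 and 18 without in vitro library C. It called 8 and 25 without in vivo library B, and 259 and 284 without in vivo library C.

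Sel1l (gene identifier 20338), the adaptor of the ubiquitin ligase Syvn1 that passes misfolded proteins out of the endoplasmic reticulum for degradation, had the largest change among the 9 genes. In vitro libraries A, B and C held 455, 370 and 366 normalised reads. The in vivo libraries A, B and C held 723, 758 and 576. All in vitro libraries lay below all in vivo libraries, which held for 16.1% of the genes with recovered reads. The in vitro mean was 397 ± 50.2 and the in vivo mean 686 ± 96.6 (SD, n = 3 libraries each), 1.73-fold lower in vitro, with PPEE 1.55e-06 by the authors' deposited table. Limma voom gave a log2 change of -0.79 ± 0.16 (SE) with an adjusted p of 0.0183. With 1 library left out, Sel1l stayed below the threshold without in vitro library A (adjusted p = 0.00135) and without in vivo library C (adjusted p = 0.0163) by limma voom. It passed above it without in vitro library B (adjusted p = 0.0506) or C (adjusted p = 0.0960), and without in vivo library A (adjusted p = 0.0926) or B (adjusted p = 0.0964) by limma voom.

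Ppp1r15a (gene identifier 17872), also known as Gadd34, is the stress-induced subunit that brings protein phosphatase 1 to eIF2alpha and so restores translation. Its in vitro libraries A, B and C held 927, 604 and 665 normalised reads, each below the in vivo group mean of 1242. The in vitro mean was 732 ± 172 (SD, n = 3 libraries), which is 1.70-fold below the in vivo mean, with PPEE 8.03e-05 by the authors' deposited table. The in vivo mean lies above 1000, where reads per library were not solved, so that no test over libraries was made.

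Atf4 (gene identifier 11911), the transcription factor whose translation increases when eIF2alpha is phosphorylated, was not called. Libraries A, B and C held 295, 451 and 377 normalised reads in vitro, and 429, 548 and 514 in vivo. In vitro library B lay above in vivo library A, and the groups overlapped. The means were 374 ± 78.0 and 497 ± 61.2 (SD, n = 3 libraries each), with PPEE 0.516 by the authors' deposited table. Limma voom gave a log2 change of -0.42 ± 0.18 (SE) with an adjusted p of 0.136. These are relative levels of RNA, while Atf4 is known to be controlled largely in translation.

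Ddit3 (gene identifier 13198), also known as CHOP, a transcription factor downstream of Atf4 that is linked to cell death under lasting stress, had the 1 higher mean in vitro among the 9 genes. Its in vitro libraries A, B and C held 100.2, 172 and 107 normalised reads, and its in vivo libraries 124, 79.7 and 124. The single high library in vitro was B and the single low one in vivo was also named B, a shared letter that carries no pairing. The means were 126 ± 39.8 and 109 ± 25.6 (SD, n = 3 libraries each), with PPEE 0.914 by the authors' deposited table. Limma voom gave a log2 change of 0.20 ± 0.27 (SE) with an adjusted p of 0.637. The change was -0.05 without in vitro library B and -0.02 without in vivo library B, so that its direction rests on single libraries.

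**Figure D3:**
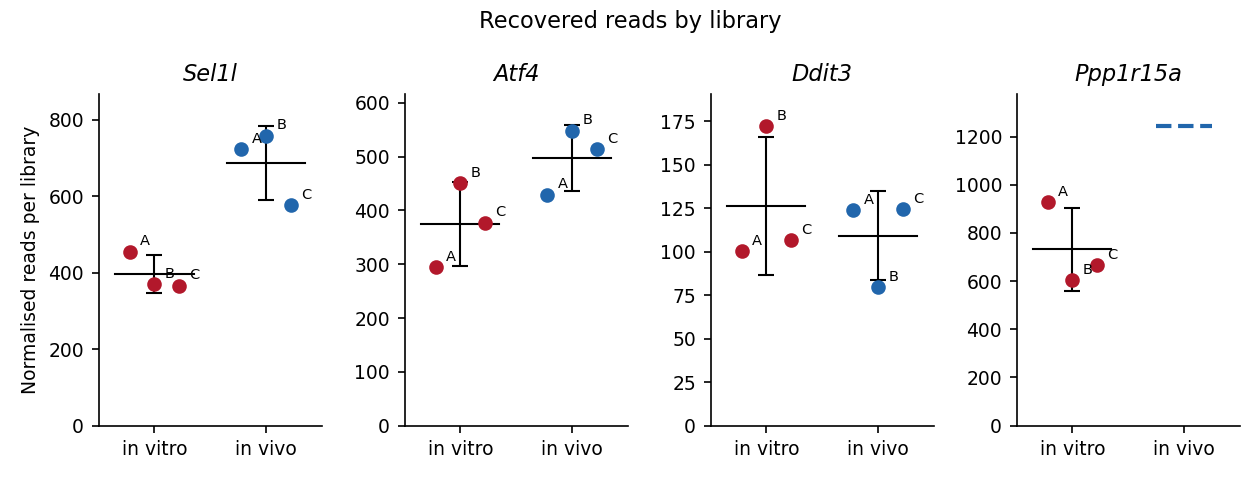
Normalised reads per library (vertical axes, each from 0) of Sel1l, Atf4, Ddit3 and Ppp1r15a, with libraries marked A to C, horizontal lines at the group mean and bars of 1 SD (n = 3). The groups are apart for Sel1l and overlap for Atf4 and Ddit3, and the dashed line for Ppp1r15a is the authors' in vivo mean of 1242, which has no values per library.

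Ratios of reads within a library do not depend on how libraries were scaled. There were 0.335 ± 0.0495 Ddit3 reads per Atf4 read in the in vitro libraries against 0.225 ± 0.0728 in the in vivo ones (SD, n = 3 libraries each; exact permutation test, 2-sided, p = 0.20). Per Sel1l read there were 0.326 ± 0.126 Ddit3 reads in the in vitro libraries against 0.164 ± 0.0556 in the in vivo ones (SD, n = 3; exact permutation test, 2-sided, p = 0.10). All 3 in vitro libraries lay above the in vivo ones in the ratio of Ddit3 to Sel1l, but narrowly. In vitro library A had 0.22 and in vivo library C 0.216, and the normalised reads of Sel1l alone already set the groups apart. For Sel1l per Atf4 read the values were 1.11 ± 0.381 and 1.40 ± 0.282 (SD, n = 3; exact permutation test, 2-sided, p = 0.30). Adjusted over the 3 ratios, each p of these exact permutation tests was 0.30, and 0.10 is the smallest that 3 against 3 libraries can give.

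The other genes of these pathways were taken from 8 lists, which also hold the 9 genes above, and were called in both directions. Of all genes, 8.31% were called lower and 6.75% higher, and their median log2 change was 0.02. Of 29 endoplasmic reticulum chaperones and cofactors, 4 were called lower and 2 higher in vitro, with a median log2 change of 0.05. Of 21 disulfide enzymes 3 were called lower and 1 higher (median -0.04). The calnexin cycle and glycosylation had 2 lower and 2 higher of 36 (median -0.15), and degradation 4 lower and 4 higher of 48 (median 0.17). Stress sensors and factors had 2 lower and 0 higher of 29 (median -0.12). The eIF2alpha switch had 1 lower and 3 higher of 21 (median 0.10). Targets of Atf4 and CHOP had 3 lower and 1 higher of 29 (median -0.04), and the translocon with signal peptidase 4 lower and 0 higher of 29 (median 0.22). By the deposited annotation, 210 genes had a cell component term that names the endoplasmic reticulum, of which 12.4% were called lower and 5.71% higher. Their median log2 change was -0.04.

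**Figure D4:**
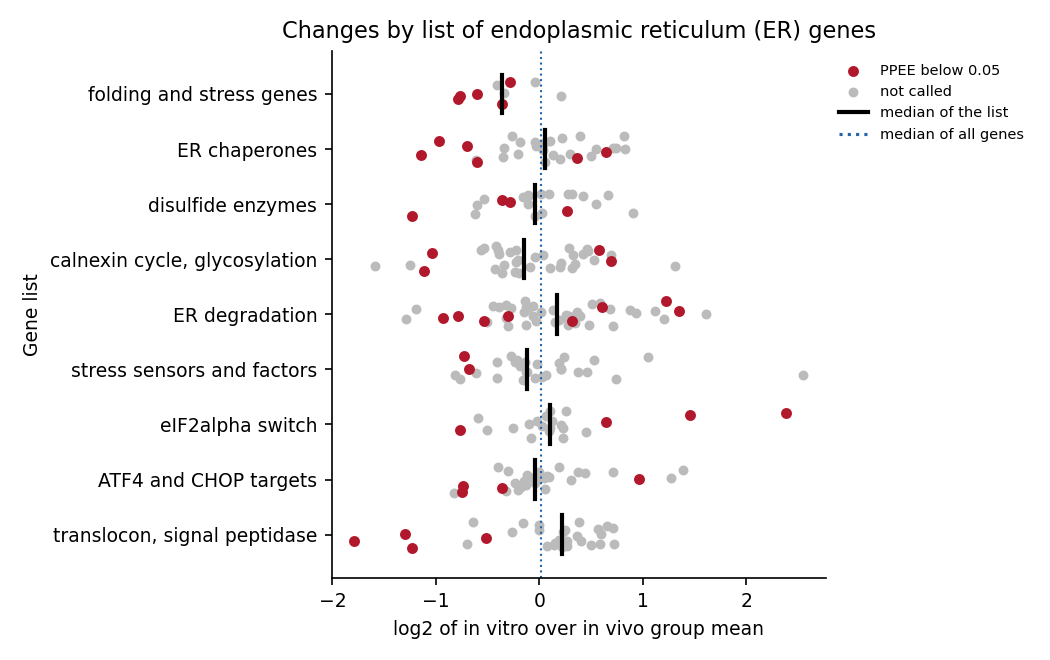
Log2 of in vitro over in vivo group mean (horizontal axis) for each gene of the 9 folding and stress genes and of the 8 lists (rows), with called genes in red. The black bars are the list medians, which run from -0.15 to 0.22 in the 8 lists and lie at -0.36 for the 9 genes, and the dotted line is the median of all genes, 0.02.

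Calls among chaperones and cofactors of Hspa5 went both ways. Hyou1, the large Hsp70 that exchanges nucleotide on Hspa5, held 131, 99.5 and 144 normalised reads in vitro and 268, 231 and 235 in vivo in libraries A, B and C. The groups did not overlap, and Hyou1 was 1.96-fold lower in vitro with PPEE 1.39e-14 by the authors' deposited table (limma voom adjusted p = 0.0171). Lrpap1, the chaperone of lipoprotein receptors, was 1.62-fold lower with PPEE listed as 0 by the authors' deposited table (limma voom adjusted p = 0.0217). Dnajc3, a J-domain cofactor of Hspa5 that also inhibits Eif2ak3, was 1.56-fold higher in vitro, from 682 to 1063, with PPEE 0.00269 by the authors' deposited table. Cnpy4 was 1.28-fold higher with PPEE 6.75e-06, and Cnpy3, named after its value was seen, 2.22-fold lower with PPEE 0.000472 by the authors' deposited table. Canx, the membrane-bound partner of Calr, stood at 1511 in vitro and 1743 in vivo with PPEE 0.307 by the authors' deposited table.

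Of the 21 disulfide enzymes 17 were not called, P4hb and Pdia3 among them. P4hb, the classical protein disulfide isomerase, stood at 1805 in vitro and 2736 in vivo, and its PPEE, 0.238 by the authors' deposited table, did not pass although its fold of 1.52 equals that of Hspa5. Pdia3, the isomerase that works with Calr and Canx, stood at 591 and 608, with normalised reads from 329 to 748 among the in vivo libraries and PPEE 0.983 by the authors' deposited table. Qsox1, a sulfhydryl oxidase, held 111, 61.2 and 52.1 normalised reads in vitro and 211, 173 and 145 in vivo. It was 2.35-fold lower in vitro with PPEE 0.000300 by the authors' deposited table (limma voom adjusted p = 0.0213). Txndc5 was higher by 0.27 on the log2 scale with PPEE 2.62e-05 by the authors' deposited table, which limma voom did not call (adjusted p = 0.163).

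In glycoprotein processing, Ganab, the catalytic subunit of glucosidase II that trims sugars for entry into the Calr and Canx cycle, was 2.06-fold lower in vitro. Its PPEE was 5.61e-06 by the authors' deposited table, and limma voom gave an adjusted p of 0.0162. Normalised reads of Ganab were 463, 235 and 272 in vitro against 707, 649 and 640 in vivo. Alg11, a mannosyltransferase of the sugar donor, was 2.17-fold lower with PPEE 0.0163 by the authors' deposited table. Alg10b, a glucosyltransferase of the same donor, was 1.49-fold higher with PPEE 6.35e-09, and Tusc3, an oligosaccharyltransferase subunit, 1.61-fold higher with PPEE 0.0443 by the authors' deposited table.

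Calls among genes of degradation also went both ways. Syvn1, the ligase that Sel1l serves, stood at 75.7 in vitro and 54.3 in vivo, with PPEE 0.836 by the authors' deposited table and a limma voom adjusted p of 0.234. Derl1, a membrane protein of the same route, held 75.4, 87.1 and 104 normalised reads in vitro and 28.3, 33.7 and 42.9 in vivo. The groups were apart, which held in this direction for 18.8% of genes with recovered reads. Derl1 was 2.54-fold higher in vitro with PPEE 4.61e-11 by the authors' deposited table (limma voom adjusted p = 0.0182). Nploc4, a cofactor of the extraction ATPase Vcp, was 1.53-fold higher, and Ube2k, a ubiquitin conjugating enzyme, 1.25-fold higher, with PPEE 4.72e-06 and 1.61e-08 by the authors' deposited table. Ube2g2, another conjugating enzyme of this route, was 1.44-fold lower, and Edem2, which trims mannose on misfolded glycoproteins, 1.24-fold lower, with PPEE 0.00400 and 0.000972 by the authors' deposited table. Ube2j2 and Faf2 were named on seeing their values: Ube2j2 was 2.34-fold higher and Faf2 1.91-fold lower, with PPEE 0.00166 and 0.0246 by the authors' deposited table. Limma voom called Nploc4 (adjusted p = 0.0351), and did not call Edem2 (adjusted p = 0.133) or Faf2 (adjusted p = 0.0884).

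The 3 stress sensors were not called by PPEE. Ern1, which splices Xbp1 RNA, stood at 477 in vitro and 286 in vivo, with PPEE 0.176 by the authors' deposited table. Its libraries held 343, 587 and 501 normalised reads in vitro against 279, 310 and 269 in vivo. Limma voom called it higher in vitro, at a log2 change of 0.69 ± 0.20 (SE) and an adjusted p of 0.0488. In 5 of the 6 fits with 1 library left out, limma voom did not call Ern1, the highest adjusted p being 0.152. Eif2ak3, the kinase of eIF2alpha also known as PERK, stood at 20.5 and 17.7 (PPEE 0.921), and Atf6 at 309 and 362 (PPEE 0.860) by the authors' deposited table. Map3k5, a kinase that Ern1 engages, was 1.66-fold lower in vitro, and Wfs1, a membrane protein of the endoplasmic reticulum, 1.60-fold lower, with PPEE 4.57e-07 and 1.25e-05 by the authors' deposited table.

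In the eIF2alpha switch, Ppp1r15a was the 1 gene called lower. Ppp1r15b, its constitutive counterpart, held 235, 148 and 194 normalised reads in vitro and 291, 341 and 236 in vivo. It was not called, with PPEE 0.155 by the authors' deposited table and a limma voom adjusted p of 0.0811. Ppp1cc, a catalytic subunit of protein phosphatase 1, was 5.21-fold higher in vitro with PPEE 0.0259 by the authors' deposited table (limma voom adjusted p = 0.0342). Its in vitro reads spread from 33.1 to 124 normalised reads against 13.6 to 17.8 in vivo. Eif2b5, a subunit of the factor that reloads eIF2, was 2.74-fold higher with PPEE 0.0426 by the authors' deposited table (limma voom adjusted p = 0.0545). Eif2s1, which encodes eIF2alpha itself, stood at 987 and 904 with PPEE 1 by the authors' deposited table.

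Among targets of Atf4 and CHOP, Trib3, a pseudokinase that CHOP induces, stood at 19.1 in vitro and 11.7 in vivo, with PPEE 0.807 by the authors' deposited table and a limma voom adjusted p of 0.323. Of the 8 transfer RNA synthetases in this list 3 were called, where 15.1% of all genes were called in either direction. Cars, Nars, Sars, Wars and Aars were not called. Mars was 1.67-fold lower and Eprs 1.28-fold lower in vitro, while Gars was 1.95-fold higher, with PPEE 3.59e-07, 6.24e-05 and 7.85e-06 by the authors' deposited table. Cth, an enzyme of cysteine synthesis, was 1.67-fold lower with PPEE 0.0399 by the authors' deposited table. Limma voom called Mars (adjusted p = 0.0266) and Gars (adjusted p = 0.0351), and did not call Cth (adjusted p = 0.117).

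Calls among genes that bring proteins into the endoplasmic reticulum were all lower in vitro, while the list's median lay above 0. Spcs3, a signal peptidase subunit, held 19.3, 27.0 and 32.3 normalised reads in vitro and 79.2, 120 and 72.3 in vivo. It was 3.45-fold lower with PPEE 3.70e-06 by the authors' deposited table (limma voom adjusted p = 0.0136). Srp68, a protein of the signal recognition particle, was 2.35-fold lower with PPEE 1.07e-05 by the authors' deposited table (limma voom adjusted p = 0.0128). Srpr, the receptor of that particle, was 1.43-fold lower with PPEE 0.00522, and Sec61a2, named after its value was seen, 2.46-fold lower with PPEE 0.0380 by the authors' deposited table. Limma voom called neither Srpr (adjusted p = 0.0793) nor Sec61a2 (adjusted p = 0.0777).

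Fits with 1 library left out covered all genes with recovered reads. Their results per gene were listed only for the genes named by the rule given with the processing, so not for Cnpy3. Of the listed genes that limma voom called, each missed the adjusted p of 0.05 in at least 3 of the 6 fits. Such misses were nearly fixed in advance. Of all 8869 genes, limma voom called 0 without in vivo library A. It called 8 higher and 25 lower without in vivo library B, and 16 and 18 without in vitro library C. The misses therefore do not set these genes apart from other genes.

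Across the table, 21 genes with an ERSE match in their promoter had a row. Lower calls numbered 4 (19.0%, against 8.31% of all genes) and higher calls 2 (9.52%, against 6.75%), with a median log2 change of -0.21 against 0.02. The 21 include Hspa5, Hsp90b1, Pdia6 and Calr, so this count is not separate from that of the 9 genes. Hspa5 and Pdia6 are among those called lower and Dnajc3 among those called higher. Named after their values were seen, the others called were Tdrd9 and Xlr3c, lower, and Zfp57, higher. The Xlr3 genes are near-identical copies whose reads may have been split between them.

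As a check of the labelled cell type, all 19 oocyte markers had a row, with group means in vitro of 37810 for Gdf9 and 17766 for Zp3. Of the 19, 3 were called lower (15.8%) and 1 higher (5.26%), against 8.31% and 6.75% of all genes. Among genes whose mean over both groups reached 1000, the shares were 13.8% and 10.3%. The called markers were Nlrp5 (8330.2 in vitro against 24099.6 in vivo), Bmp15 and Kit, lower, and Oog1, higher. Zar1 (477 against 90.5), named after its value was seen, was called higher by limma voom (adjusted p = 0.0223) and not by PPEE. Of 20 granulosa cell markers, 8 had a row, and Amh and Foxl2 had none. The 8 together summed to between 380.5 and 503 normalised reads per library in vitro and to between 311 and 315 in vivo. Inha (96.6 against 28.9) and Fshr (12.4 against 2.45) were called higher in vitro, with PPEE 1.76e-09 and 0.00826 by the authors' deposited table. Limma voom called Inha (adjusted p = 0.0117) and not Fshr (adjusted p = 0.0763). Of the 8 means, 4 were higher in vitro and 4 lower. The lower ones, named after their values were seen, were Nr5a2 (60.4 against 76.3), Kitl (39.4 against 42.5), Gja1 (17.8 against 18.2) and Col4a1 (31.3 against 32.0). None of these was called. Of 12 theca and stroma markers 1 had a row, Cyp11a1, at 3.72 to 8.29 normalised reads per library in vitro and 1.13 to 16.8 in vivo. Of 15 blood, immune and endothelial markers 4 had a row. Of these 2, Tek and Pecam1, were called lower in vitro by PPEE, as were 8.31% of all genes. The hemoglobin genes, Ptprc, Adgre1, Lyz2, Cd3e and the endothelial marker Cdh5 had none. Cd68 (14.1 against 10.8), named after its value was seen, had the higher mean in vitro and was not called. Kdr (16.1 against 55.3), also named so, was called lower by limma voom (adjusted p = 0.0170) and not by PPEE. The 3 with recovered reads summed to between 70.7 and 111 normalised reads per library in vitro and to between 162 and 202 in vivo. Whether RNA from other cells has a part in the changes above was not tested.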

How the data were processed

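The members and gene lists were chosen with earlier results of these data known. Per the labels' protocols, SMARTer cDNA was prepared and amplified for sequencing, starting at 10 ng of RNA per sample. Per the submitters' processing notes, BWA and build mm9 were used; no version, counter or normalisation is given in the sources used here. The authors deposited 1 table with, per gene, a signal for each group (the mean of normalised reads over its samples), a log2 ratio (in vivo divided by in vitro), a PPEE and the length. The deposited log2 ratio holds an added constant of 0.599 in each mean, while folds here are plain ratios of the means. Spearman correlations of the means with length across genes were 0.061 in vitro and 0.0954 in vivo, which alone do not show whether the means are per length. The means were solved as whole reads with 1 constant for each library, with no division by length, as described next. Spreadsheet dates replaced 16 symbols, which were restored by gene identifier. Of all identifiers, 10875 matched RefSeq.

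Each group mean adds up whole reads of 3 libraries, weighted by 1 constant (step) for each library. The steps were found from repeated low means, and each mean below 1000 was solved for whole reads to its 10 significant digits. Below 200, 1 whole solution was found for 95.1% of means in vitro and 95.4% in vivo, against 0.75% of randomly shifted values in either group. Between 200 and 1000 it was found for 92.7% and 90.9%, against any solution for 29.5% and 41.5% of shifted values. A second solution is possible from means of 474 in vitro and 446 in vivo, and genes with several were left out. The size factors found in vitro were 1.09, 0.965 and 0.806, those in vivo 1.24, 1.13 and 0.885. Recovery and test were checked on simulated data. Both groups were solved for 8869 genes (81.4%). Genes with high means are missing from them. The limit of 1000 was set after seeing the data.

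Limma 3.58.1 (voom, R 4.3.3) was fitted to these reads with library sizes set by the size factors. The reads carry no molecular identifiers. Named genes were the members, 12 core partners, and in each list up to 3 called genes per direction with the smallest PPEE. No other columns of values per sample were used. Alternatives were a stricter PPEE, a minimum fold or mean, another pseudocount, centring, other library sizes, limma trend and leaving out each library.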

Additional observations from a re-analysis of the deposited data

How the results depend on the processing

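Of 118 values under other settings, 99 kept their direction and their side of the threshold, or for a count stayed within 1.5 times. Part of the 99 was fixed in advance. Centring could not change a count, and no new PPEE was made for a pseudocount, the authors' log2 ratio or centring. With limma voom on recovered reads, 884 of 8869 genes were called, against 1640 of 10896 by PPEE, 661 of them by both. Of the 9 folding and stress genes, limma voom called 1 of the 3 it could test. Among all genes it tested, 4.74% were called lower and 5.23% higher. At least a 1.5-fold change left 3 of the 5 PPEE calls among the 9 genes, and a PPEE below 0.01 left all 5. In the lists, the 1.5-fold minimum left 1 of 4 calls in disulfide enzymes and 5 of 8 in degradation, and a PPEE below 0.01 left 2 of 4 in both the calnexin cycle with glycosylation and the eIF2alpha switch. Limma voom, which tests fewer genes, called 1 disulfide enzyme, 4 degradation genes, 4 stress sensors and factors, 1 gene of the eIF2alpha switch, 2 targets of Atf4 and CHOP and 2 genes of the translocon. In the lists, the calls by limma voom without a PPEE call were Ern1 and, named after their values were seen, Dab2ip, Herpud2 and Sdf2l1, all higher in vitro. A PPEE near 1 did not always go with similar levels. The marker Kdr had a PPEE of 0.9996 although it was 3.44-fold lower in vitro and its groups did not overlap. Pdia6, at 1.21-fold, had a PPEE of 9.55e-14. How the PPEE was computed could not be checked here. With 1 library left out, the log2 change of Sel1l by limma voom ranged from -0.90 to -0.71, that of Atf4 from -0.575 to -0.249, and that of Ddit3 from -0.046 to 0.369. Ddit3 changed direction at -0.046 and -0.016, without library B of either group. A pseudocount, centring, library sizes from recovered reads, limma trend and the minimum of 10 reads changed no direction of a member. The last 3 were run only on the 3 members with recovered reads, and changed no call. A pseudocount and centring leave the PPEE as it is, so no call could change under them. No paired analysis was possible because the deposited columns are group means, and the recovered libraries carry no replicate number. Depth limits the genes with few reads, such as Eif2ak3 and Trib3, and members with means of 1000 or more have no spread between libraries here.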
